A study of Bos taurus with 8 samples.

Results

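The genes described here are those of the serotonin system of the mammary gland together with PTHLH, the gene of parathyroid hormone-related protein. Members were all probe sets whose platform annotation named exactly 1 symbol, that symbol being TPH1, DDC, MAOA, MAOB, SLC6A4, HTR1B, HTR2B, HTR4, HTR7 or PTHLH. Of these 10 genes, 8 were present, with 12 of the 24016 probe sets tested. No probe set carried the symbol TPH1 or HTR7 alone, so the enzyme that starts serotonin synthesis and this receptor were not analysed here.

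Single-colour arrays were used to measure transcripts in 8 lactating mammary biopsies of 4 Holstein cows (Bos taurus). From every cow came 1 sample of full gland, 12 h after its milk was last removed, and 1 of empty gland, at 0 h. The question of the series is what the build-up of milk does to expression, and the 2 states were set against each other cow by cow. The state of the gland cannot be told apart from anything else that changed between the 2 biopsies.

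Serotonin is made from tryptophan by the enzymes TPH1 and DDC in turn, carried back into cells by the transporter SLC6A4 and broken down by the monoamine oxidases MAOA and MAOB. In the mammary gland of rodents and cattle, serotonin made by the epithelium is known to act locally as a brake on milk secretion when milk accumulates, through receptors of the HTR family. In rodents it also raises PTHLH, whose protein is released by the lactating gland and draws calcium out of bone for milk. The breakdown of serotonin and the uptake of tryptophan, the cofactor of its synthesis and the signals downstream of its receptors are described after the members.

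Values are log2 levels after RMA (robust multi-array average, a background correction, quantile normalization and summary of the probes of each probe set), so that a difference of 1 is a 2-fold change. The brightness of a probe set depends on its probes as well as on the transcript, and levels of different genes were not ranked against each other. The median level of an array lay between 7.08 and 7.24. Cows 2 and 4 had full libraries that differed most from the rest, correlating with the other 7 arrays at a median r of 0.969 and 0.975, while the remaining 6 libraries reached at least 0.986. The tissue carried its label: luminal epithelial markers were above background for 10 of 10 genes, with the milk protein LALBA at 14.20 in full and 14.20 in empty gland.

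Most of the serotonin genes lay near background by the main rule used here. The deposited values carry no detection call, so background was set from 60 probe sets of 39 genes typical of other tissues, such as retina, testis, pituitary and pancreas. Their median level was 5.69, and a probe set was called near background if its mean over the 8 arrays was at or below their 90th percentile, 6.84. By this rule 10 of the 12 member probe sets lay near background, including those of DDC, MAOA, SLC6A4, HTR1B, HTR2B and HTR4. PTHLH was far above it, at a mean of 12.49. The only other probe set above it was the brighter of the 2 for MAOB, at 6.95, which was just above the line, and MAOA, at 6.70, was just below it. Of all probe sets tested, 55.8% were above the line.

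The position of the line was uncertain. The line was set as a percentile of the 60 probe sets, so the count of 6 above it was fixed by that choice. The brightest of the 60 were probe sets of GH1 at 8.90, MBP at 8.77 and SYCP3 at 8.63. With the 75th percentile, 6.07, as the line, 7 of the 12 member probe sets lay near background, and DDC, MAOA and SLC6A4 joined MAOB and PTHLH above it. Counted by gene, only HTR1B, HTR2B and HTR4 then had no probe set above the line. With the median of all probe sets, 7.16, PTHLH alone was above. The HTR probe sets lay below each of these 3 lines.

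**Figure D1:**
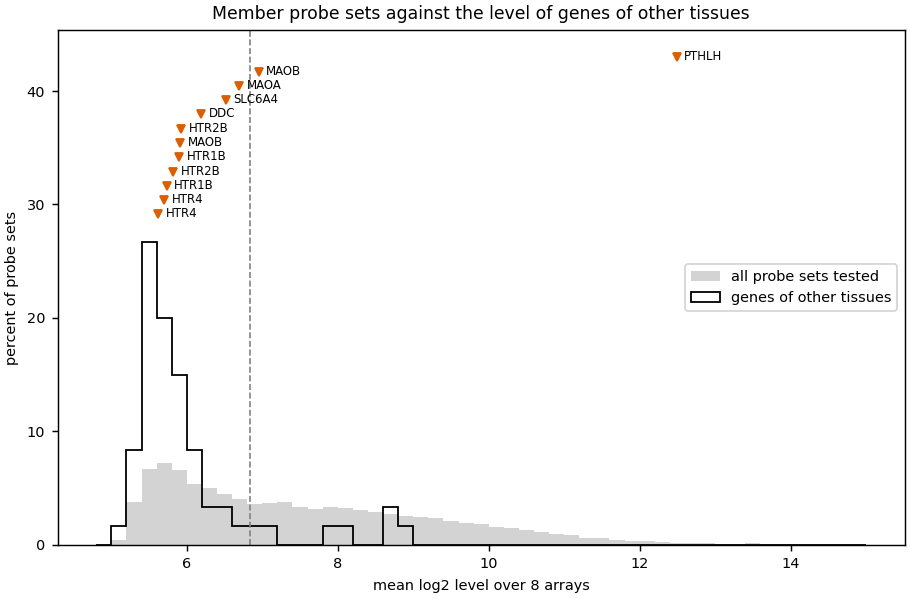
Percent of probe sets (vertical axis) by mean log2 level over 8 arrays (horizontal axis), for all 24016 probe sets tested (grey) and for 60 probe sets of genes of other tissues (black outline). Triangles mark the 12 member probe sets, at heights that only separate the labels, and the dashed line is the background level of 6.84. PTHLH, at 12.49, is the sole member far to the right of the line.

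PTHLH, the member far above background, had a lower mean in full gland, by a difference that did not pass the test. Its levels in cows 1 to 4 were 12.54, 12.28, 12.63 and 12.04 in full gland, against 12.64, 12.62, 12.65 and 12.51 in empty gland. Full gland was lower in all 4 cows, by 0.02 in cow 3 and by 0.47 in cow 4 at the extremes, and the groups overlapped because the full libraries of cows 1 and 3 lay within the range of the empty ones. The empty samples were close together, with a standard deviation of 0.06, while that of the full samples was 0.27 (n = 4 each). The mean was 12.37 in full and 12.61 in empty gland.

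The mean difference of PTHLH was -0.23 ± 0.10 log2 (limma's moderated SE, n = 4 cows), which is a ratio of 0.85. Its 95% interval ran from -0.48 to 0.01. In limma with cow as a block, the unadjusted p was 0.0545 and the Benjamini-Hochberg adjusted p over all probe sets was 0.993, so the difference did not pass. In an exact two-sided permutation test that flips the sign of each cow's difference, 2 of the 16 sign patterns gave a mean as far from 0, which is the fewest that 4 cows allow and cannot reach a p of 0.05. Over the whole array 5.97% of the probe sets were lower in full gland in all 4 cows. Among the 12 member probe sets PTHLH was the 1 with a shared direction, while 10.2% of all probe sets had one.

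The size of the PTHLH difference rested on the 2 full libraries that stood apart. The differences were -0.34 in cow 2 and -0.47 in cow 4, and -0.10 and -0.02 in cows 1 and 3. Without cow 4 the mean difference was -0.16, and without cows 2 and 4 it was -0.06. The full library of cow 4 also had the highest actin control signal at the 3′ end relative to the 5′ end, a measure of RNA breakage, at 1.36 log2, against -0.07 to 0.07 in the other 7 libraries. For the GAPDH control the highest value, 3.31, was in the full library of cow 2, against 1.53 to 2.13 elsewhere. The third control of this kind, ef1a, was highest in the same library of cow 2, at -0.75, against -1.96 to -1.25 in the others. The part of these measures in the PTHLH difference was not tested.

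**Figure D2:**
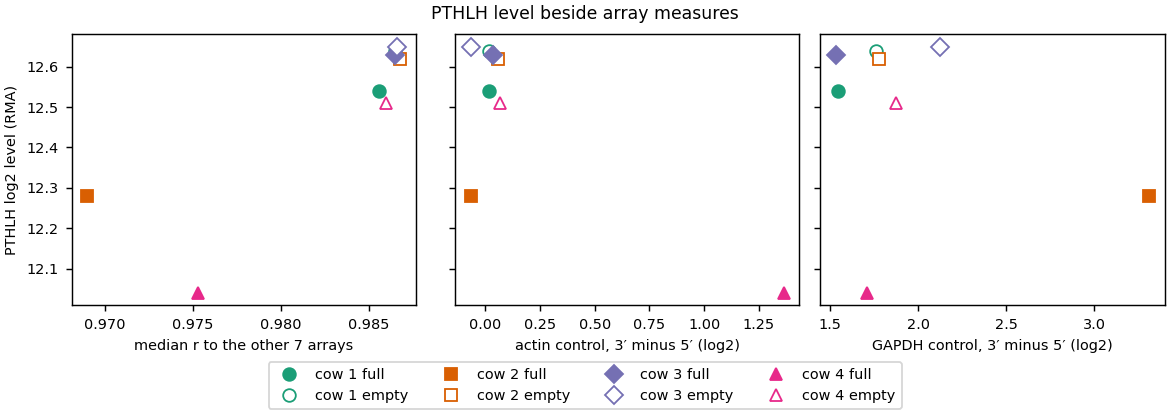
PTHLH log2 level (vertical axis) in each of 8 libraries against 3 array measures: the median correlation with the other 7 arrays, and the 3′ minus 5′ signal of the actin and GAPDH controls in log2 units. Filled symbols are full and open symbols empty gland, 1 symbol shape per cow. The full libraries of cows 2 and 4 have the lowest PTHLH levels, 12.28 and 12.04, and the lowest median correlations. That of cow 4 stands apart in the actin control and that of cow 2 in the GAPDH control. In the remaining control of the pair each lies within the range of the other libraries.

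Markers of other cells also differed between the libraries of a cow, and for fibroblast, leukocyte and myoepithelial genes the widest shift was in cow 4. In a biopsy, fewer cells of a type and less RNA per cell cannot be told apart. The median full minus empty difference of 8 fibroblast genes was -0.42, 0.16, -0.09 and 0.71 in cows 1 to 4, and that of 8 leukocyte genes was -0.29, 0.45, -0.08 and 0.80. The 9 myoepithelial genes had medians of -0.01, 0.18, -0.15 and 0.67, and 7 endothelial genes had -0.12, -0.42, 0.15 and 0.12. Of all genes, 48.6% had a higher mean in full gland. The count was 9 of 9 for myoepithelial, 7 of 8 for fibroblast, 7 of 8 for leukocyte, 7 of 10 for luminal and 2 of 7 for endothelial genes. The fibroblast shift was smaller in cow 2 than in cow 1, and the endothelial genes were lower in cow 2 but not in cow 4. The 10 luminal genes had medians of 0.02, 0.11, -0.01 and 0.13. The brightest of them, CSN2, CSN3, LALBA and PAEP, had mean levels of 13.84 to 14.39 and weigh most in a sum. The log2 of the summed signal of the luminal markers ranged from 16.42 to 16.47 in full and from 16.37 to 16.45 in empty gland. For fibroblast genes it ranged from 13.99 to 15.21 in full and from 14.10 to 14.70 in empty gland, for leukocyte genes from 11.55 to 12.10 in full and from 11.71 to 11.86 in empty gland, and for myoepithelial genes from 13.70 to 14.72 in full and from 13.81 to 14.17 in empty gland. No luminal, fibroblast or leukocyte marker on the array lay near background, while 1 of the 9 myoepithelial markers, KRT14, and 1 of the 7 endothelial markers, VWF, did. The part of these cells in the PTHLH difference was not tested.

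The genes most like PTHLH over the 8 arrays, among 6665 genes above background, were LOC768028 (Pearson r = 0.978), VIPR1 (r = 0.970) and EIF1AX (r = 0.966). The arrays share cows and normalization, so these values describe likeness only. VIPR1, a receptor of vasoactive intestinal peptide, had levels of 9.91, 9.53, 9.98 and 9.09 in full gland of cows 1 to 4, against 10.16, 10.20, 10.08 and 9.73 in empty gland. It shared with PTHLH the low values in the full libraries of cows 2 and 4. EIF1AX, a translation initiation factor, differed by -0.16 in cow 2 and -0.18 in cow 4.

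DDC encodes aromatic amino acid decarboxylase, which turns the hydroxylated tryptophan into serotonin. Its levels in cows 1 to 4 were 5.75, 8.02, 5.69 and 6.22 in full gland, against 5.63, 6.48, 6.06 and 5.67 in empty gland. The full library of cow 2 was above the background line and the other 7 libraries were below it. Cow 2 also had the highest empty sample. The mean was 6.42 ± 1.10 in full gland, against 5.96 ± 0.40 in empty gland (SD, n = 4 each). The mean difference was 0.46 ± 0.30 log2 (SE, n = 4 cows), higher in 3 of 4 cows, with a 95% interval from -0.28 to 1.20 and a limma adjusted p of 0.993. Without cow 2 it was 0.10 and without cow 3 it was 0.74, and without cows 2 and 4 it turned to -0.13.

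MAOA and MAOB are enzymes of the outer mitochondrial membrane that oxidize monoamines, and MAOA prefers serotonin. MAOA levels in cows 1 to 4 were 6.79, 6.86, 6.59 and 6.95 in full gland, against 6.83, 6.49, 6.90 and 6.16 in empty gland. The groups overlapped, 3 of the 8 libraries were above the background line, and the difference was positive in cows 2 and 4 and negative in cows 1 and 3. Its mean difference was 0.20 ± 0.18 log2 (SE, n = 4 cows), with a 95% interval from -0.25 to 0.65 and a limma adjusted p of 0.993. Without cow 4 it was 0.01 and without cow 3 it was 0.37, and without cows 2 and 4 it was -0.17.

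The brighter probe set of MAOB had levels of 6.82, 7.23, 6.93 and 7.05 in full gland of cows 1 to 4, against 6.89, 6.41, 7.79 and 6.47 in empty gland. The highest value was the empty sample of cow 3, and the 2 lowest were the empty samples of cows 2 and 4. The differences of 0.82 in cow 2 and 0.59 in cow 4 were opposed by -0.86 in cow 3, and cow 1 was at -0.07. The mean difference was 0.12 ± 0.28 log2 (SE, n = 4 cows), with a 95% interval from -0.57 to 0.81 and a limma adjusted p of 0.993. Its sign turned without cow 2, at -0.12, and without cow 4, at -0.04, and it was 0.45 without cow 3. The other MAOB probe set was near background throughout, at 5.70 to 6.03 in full and 5.80 to 6.08 in empty gland, and differed by -0.04 ± 0.10 log2 (SE, n = 4 cows).

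The differences of DDC, MAOA and the brighter MAOB probe set had the same sign in cow 2 and in cow 4, where they were positive, and in cow 3, where they were negative. In cow 1 they were 0.12, -0.03 and -0.07. The 3 probe sets come from the same 8 libraries, so this is a description and not a test. The genes most like MAOB, by its brighter probe set, were AP2B1 (Pearson r = 0.915), an adaptor of clathrin-coated vesicles, SART1 (r = 0.912), a splicing factor, and PEX7 (r = 0.889), a receptor of peroxisomal import, over 8 arrays.

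SLC6A4, the serotonin transporter, had levels of 6.55, 6.21, 6.65 and 6.54 in full gland of cows 1 to 4, against 6.44, 6.55, 6.74 and 6.48 in empty gland. All 8 were below the background line, and the full library of cow 2 was the lowest. The mean difference was -0.06 ± 0.09 log2 (SE, n = 4 cows), with a 95% interval from -0.30 to 0.17 and a limma adjusted p of 0.993. It was 0.03 without cow 2, -0.12 without cow 1 and -0.10 without cow 4.

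The serotonin receptors were dim. HTR1B and HTR4 signal through G proteins that lower and raise cyclic AMP in turn, and HTR2B through phospholipase C. Each had an A1 and an S1 probe set, letters that in the array's naming mark opposite orientations on the same cluster. Which of the 2 reads the messenger strand is not known here. Over these 6 probe sets and 8 arrays the levels ranged from 5.51 to 6.31, all below the background line. Over the array's 380 such pairs the 2 probe sets differed by a median of 0.17 log2 in level.

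HTR2B had the widest spread of the receptors, in the full samples. Its S1 probe set had levels of 6.13, 5.63, 6.0 and 6.31 in full gland of cows 1 to 4, against 5.93, 5.78, 5.88 and 5.77 in empty gland. Its A1 probe set had 6.12, 5.58, 5.72 and 6.24 in full gland, against 5.78, 5.69, 5.75 and 5.70 in empty gland. Both probe sets were highest in the full library of cow 4 and lowest in that of cow 2, where the difference was -0.15 and -0.11. The mean differences were 0.18 ± 0.12 and 0.19 ± 0.13 log2 (SE, n = 4 cows), with a limma adjusted p of 0.993 for both. Without cow 4 they were 0.05 and 0.07, and without cow 2 they were 0.29 and 0.28.

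For HTR1B, the levels of the S1 probe set were 5.93, 5.99, 5.86 and 5.79 in full gland of cows 1 to 4, against 5.90, 5.88, 5.85 and 5.96 in empty gland. Its mean difference was -0.0048 ± 0.08 log2 and that of the A1 probe set 0.03 ± 0.08 (SE, n = 4 cows). For HTR4, the A1 probe set had 5.71, 5.77, 5.69 and 5.55 in full gland, against 5.76, 5.80, 5.66 and 5.65 in empty gland. Its mean difference was -0.04 ± 0.07 log2 and that of the S1 probe set 0.0038 ± 0.07 (SE, n = 4 cows). The 95% intervals of the 6 receptor probe sets together spanned -0.20 to 0.50. With signal this close to background, a change in the transcript would be understated, so these intervals bound the measured signal only.

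**Figure D3:**
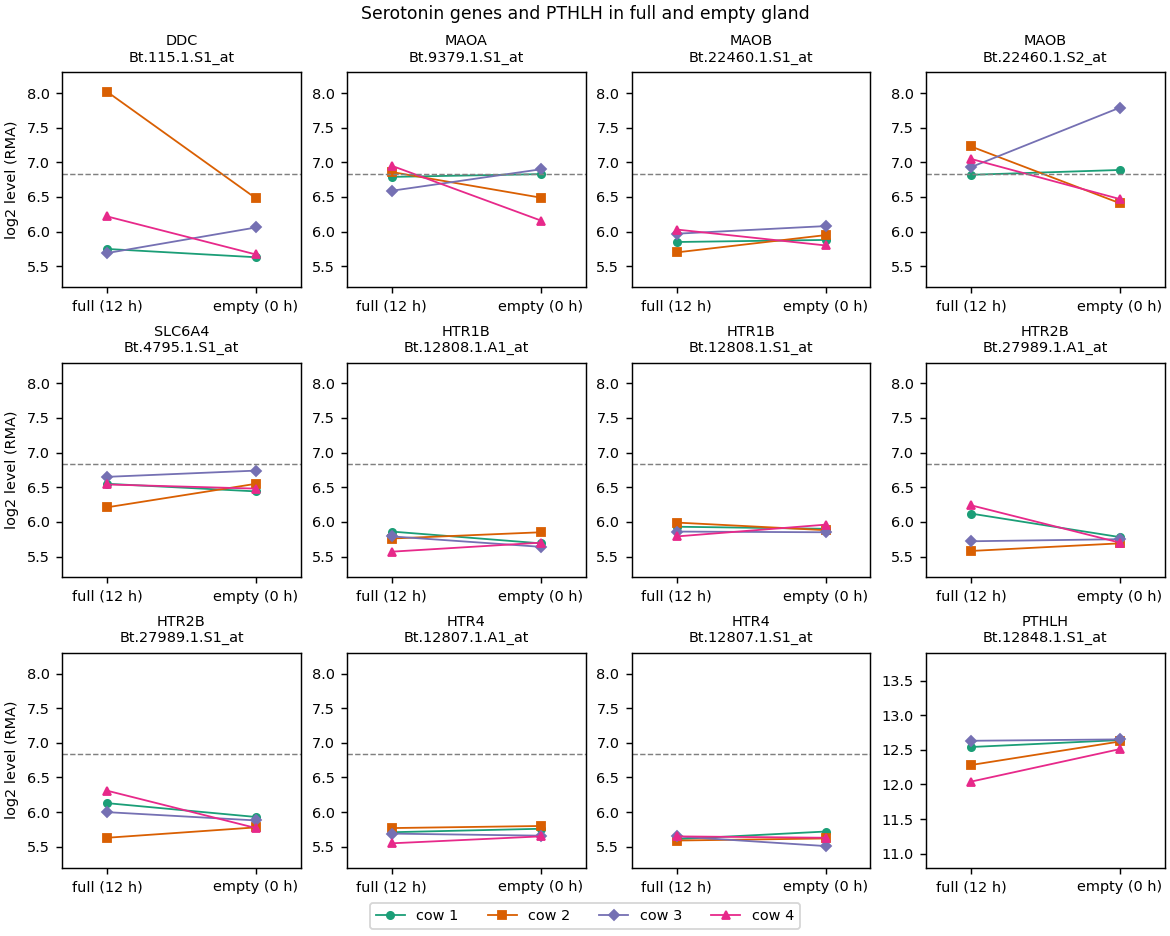
Log2 level of each member probe set in full gland (12 h, left) and empty gland (0 h, right), with 1 line per cow. The dashed line is the background level of 6.84, and the vertical axis of PTHLH is shifted upwards while that of the others covers the dim range. PTHLH is lower in full gland in all 4 cows, and DDC reaches 8.02 in the full library of cow 2 alone.

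Over the members, 0 of 12 probe sets passed the limma test of full against empty gland at an adjusted p of 0.05, and 0 had an unadjusted p below 0.05. The background on the array was the same: 0 of 24016 probe sets passed (0%), and 2.5% had an unadjusted p below 0.05. The groups overlapped for 12 of the 12, and 0.812% of all probe sets had groups that did not overlap. The mean was higher in full gland for 7 member probe sets and lower for 5, with a median difference of 0.01 log2, against -0.0003 over all probe sets tested. The SE of a member's difference ranged from 0.07 for HTR4 to 0.30 for DDC.

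**Figure D4:**
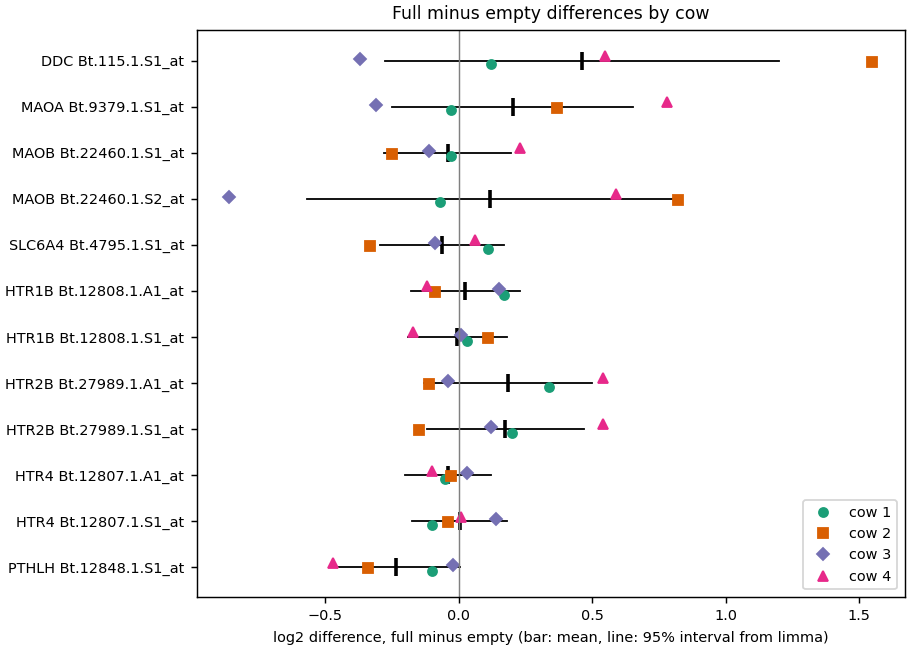
Log2 difference, full minus empty, of the 12 member probe sets (rows). Symbols are the 4 cows, black bars the means and lines the 95% intervals from limma. Every interval crosses 0, and the 4 cows lie on the same side of it for PTHLH alone.

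Members were also compared between the 4 animals. In the moderated F-test of limma for differences between cows, 0 of 12 member probe sets passed (adjusted p from 0.310 to 0.927), while 0.437% of all probe sets did. DDC had the smallest unadjusted p among the members, 0.0361 in limma's F-test, and was the 1 member of 12 below 0.05, against 14.8% of all probe sets. Both DDC samples of cow 2 were the highest of their state.

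The other genes of serotonin handling were read from lists, each gene by its brightest probe set. None of their members passed limma (0 of 9155 genes passed), and the lowest adjusted p in each list was 0.993. At an unadjusted p below 0.05 in limma there were PTS, SLC7A5, ADCY6 and ORAI1, each the 1 gene of its list, against 256 of the 9155 genes. Among enzymes that use tryptophan or clear serotonin products, 6 of 13 measured genes had a higher and 7 a lower mean in full gland, with a median difference of -0.02 log2, against -0.0036 over all genes, of which 51.4% were lower. ALDH2, a mitochondrial aldehyde dehydrogenase, averaged 12.39 ± 0.18 in full gland, against 12.52 ± 0.11 in empty gland (SD, n = 4), with a mean difference of -0.13. It was lower in all 4 cows, as were 5.97% of all probe sets, by -0.01, -0.24, -0.03 and -0.23 in cows 1 to 4. IDO1, which diverts tryptophan into the kynurenine pathway, differed by -0.16 log2, with -0.66 in cow 2 and 0.20 in cow 3. AKR1A1, an aldehyde reductase, differed by -0.12 and ALDH1A1 by -0.10. The melatonin enzymes AANAT and ASMT, which use serotonin as their starting material, were near background at mean levels of 5.81 and 6.01.

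All 6 measured enzymes of tetrahydrobiopterin, the cofactor that tryptophan hydroxylase needs, were above background. Of the 6, 5 had a lower mean in full gland, against 51.4% of all genes. The median difference was -0.11 log2, against -0.0036 over all genes. QDPR, the 1 with a higher mean, differed by 0.07, and by -0.06 at its dimmer probe set. PTS, which catalyses the second step of cofactor synthesis, had levels of 8.96, 8.88, 9.28 and 8.60 in full gland of cows 1 to 4, against 9.06, 9.22, 9.41 and 9.02 in empty gland. It was lower in all 4 cows, with a mean difference of -0.25 ± 0.08 log2 (SE, n = 4 cows), a 95% interval from -0.45 to -0.04 and a limma adjusted p of 0.993. GCH1, the first enzyme of that route, differed by -0.11, with -0.60 in cow 2 and 0.04 to 0.05 in the other 3 cows. PCBD1 and SPR differed by -0.13 and -0.10. By cow, the median of the list was -0.01, -0.30, -0.03 and -0.32. With cows 2 and 4 left out it was -0.01.

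Of the monoamine and tryptophan carriers, 4 of 12 were measured, 2 with a higher and 2 with a lower mean in full gland. SLC18A2, the vesicular monoamine transporter that loads serotonin into vesicles, was above background, with levels of 9.30, 9.08, 9.50 and 9.37 in full gland of cows 1 to 4, against 9.43, 9.44, 9.24 and 9.67 in empty gland. It was lower in 3 of 4 cows, and its mean difference was -0.13 ± 0.12 log2 (SE, n = 4 cows). SLC7A5, a carrier of large neutral amino acids that include tryptophan, averaged 11.23 ± 0.55 in full gland, against 11.55 ± 0.27 in empty gland (SD, n = 4). It was lower in all 4 cows, by -0.06, -0.43, -0.09 and -0.70 in cows 1 to 4. Its partner subunit SLC3A2 differed by 0.01.

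SLC18A2 is also a gene of mast cells, which store serotonin in rodents. Of 8 mast cell genes 3 were measured, and HDC and FCER1A were near background at mean levels of 5.62 and 6.25. The third, KIT, which luminal cells of the gland also express, averaged 10.08 in full and 9.80 in empty gland. The log2 of their summed signal, which is mostly that of KIT, ranged from 9.90 to 11.00 in full and from 9.77 to 10.16 in empty gland. Of the platelet genes, 3 of 7 were measured, and ITGA2B, PF4 and TUBB1 were all near background.

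The other serotonin receptors HTR1A, HTR1D, HTR1F, HTR2A and HTR2C were near background, at mean levels of 5.38 to 6.18 by their brightest probe sets. S100A10, the adaptor known as p11 that brings HTR1B and HTR4 to the cell surface in brain, was bright and varied widely. Its levels in cows 1 to 4 were 9.85, 11.11, 9.84 and 11.02 in full gland, against 10.34, 10.21, 9.93 and 10.14 in empty gland. It was higher in the full libraries of cows 2 and 4, by 0.89 and 0.88, and lower in those of cows 1 and 3, with a mean difference of 0.30 and a 95% interval from -0.34 to 0.94. Its second probe set had the same signs, with 1.82 in cow 2 and 0.97 in cow 4.

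Downstream of the receptors, 9 of 20 genes of G proteins and cyclic AMP signalling had a higher and 11 a lower mean in full gland, with a median difference of -0.02 log2. The adenylyl cyclase ADCY6 was lower in all 4 cows, by -0.09, -0.32, -0.08 and -0.54 in cows 1 to 4. Its mean difference was -0.26 ± 0.10 log2 (SE, n = 4 cows), and its relative ADCY7 differed by 0.28 ± 0.22, with 0.98 in cow 2 and -0.16 in cow 3. A dimmer ADCY6 probe set, at a mean level of 6.85, differed by -0.17 and was lower in cows 2 and 4. The regulatory subunits of protein kinase A, PRKAR1A and PRKAR2B, differed by -0.16 and -0.15.

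On the side of PTHLH, its receptor PTH1R was near background at a mean level of 6.16, as were the calcium-sensing receptor CASR at 5.51 and the calcium pump ATP2B2 at 5.69. ATP2B2 was read by an A1 probe set, and whether that reads the messenger strand is not known here. Of the 9 genes of this list 6 had a higher and 3 a lower mean in full gland, with a median difference of 0.02 log2. ORAI1, the pore of the store-operated calcium channel, was lower in all 4 cows. Its levels in cows 1 to 4 were 10.62, 10.34, 11.11 and 10.15 in full gland, against 10.87, 11.01, 11.27 and 10.66 in empty gland. The mean difference was -0.40 ± 0.10 log2 (SE, n = 4 cows), with a 95% interval from -0.66 to -0.14, an unadjusted p of 0.00952 in limma and an adjusted p of 0.993. Its second probe set, at a mean level of 7.75, differed by -0.43, with -1.27 in cow 2 and 0.38 in cow 3. STIM1, the sensor that opens that channel, differed by 0.02, the calcium pump ATP2B1 by 0.17 and the Golgi pump ATP2C1 by -0.12.

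**Figure D5:**
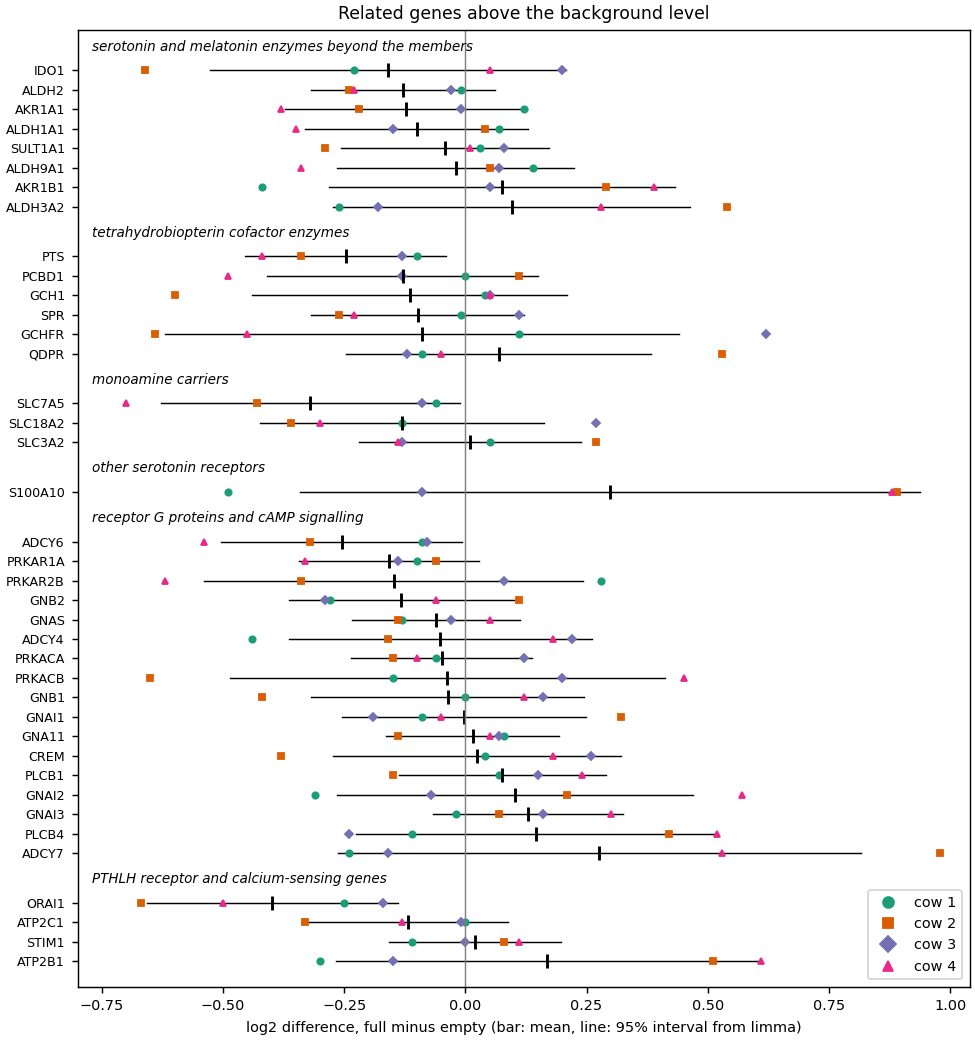
Log2 difference, full minus empty, of the related genes above background, grouped by list. Symbols are the 4 cows, black bars the means and lines the 95% intervals from limma. PTS, SLC7A5, ADCY6 and ORAI1 have intervals below 0, none with an adjusted p below 0.993, and their most negative differences are in cows 2 and 4.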

How the data were processed

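The deposited values are log2 signals, 1 for each probe set in each sample. The authors made them with RMA, per the submitters' processing notes, of which no version is named there. That they are log2 follows from their range and near-equal distributions. Quantile normalization hides shifts shared by most genes. Array signals have no read depth, so the number of arrays limits the precision.

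Of 24128 probe sets, 112 platform controls were left out. Two-sided moderated tests (lmFit, then eBayes) came from limma 3.58.1 under R 4.3.3, fitted to 24016 with state and cow as fixed terms (3 residual and 2.81 prior degrees of freedom), Benjamini-Hochberg adjustment and a threshold of 0.05. Cow was blocked, since the descriptions number the cows and give both states for each. The samples of a cow deviated together from their group means, with r = 0.457, 0.319, 0.597 and 0.525 for cows 1 to 4, whereas between different cows r was at most -0.03. Deviations from a group mean sum to 0, so this centring itself pushes the values between cows below 0. The fit was also run on data simulated from its own estimates with independent noise. Such data hold no libraries that stand apart, so nothing is concluded from that run here. Tables were made in Python 3.11.15 with pandas 2.3.3 and numpy 2.4.6.

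Members and lists were chosen with earlier results of these data known. All member probe sets are named, with up to 4 genes per list above background by size of difference and the 3 genes most correlated with each member above background. Other list members (AANAT, ASMT, HTR1A, PTH1R, CASR, ATP2B2 and the like) and second probe sets were picked with their values in view. Gene symbols are those of the platform annotation, and the lists' members were tested only in the fit across all probe sets.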

Additional observations from a re-analysis of the deposited data

How the results depend on the processing

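No member probe set passed full against empty gland under the alternatives whose calls were counted, nor did any probe set of the array. The count was 0 of 12, except that among the brighter probe sets PTHLH was the 1 member tested. Without the replicate block the counts were again 0 and 0, and the block changed no call. Of 125 values of single member probe sets under other settings, 109 kept their direction, and the lowest limma adjusted p was 0.522. The 109 include values that could not turn. Without the block, with cow as a random block, with an intensity trend and robust prior or among brighter probe sets only, the mean difference is unchanged. PTHLH kept its direction under all 11, from -0.31 to -0.06, but most of these could not have turned it. Its estimate stayed at -0.2345 in the settings just named. Its difference was negative in each cow, so leaving cows out could not change the sign either. The direction turned for HTR4 S1 under median centring (-0.0134) and repeated quantile normalization (-0.00266), and for HTR1B S1 with the mean of its probe sets (0.0104). Without cows 2 and 4 it turned for DDC (-0.13), HTR1B S1 (0.0192), the brighter MAOB (-0.466), SLC6A4 (0.0112) and MAOA (-0.17). With each cow left out in turn the ranges that crossed 0 were -0.0221 to 0.0757 for HTR1B A1, -0.0434 to 0.0497 for HTR1B S1, -0.132 to 0.0308 for the dimmer MAOB, -0.115 to 0.446 for the brighter MAOB, -0.119 to 0.0278 for SLC6A4 and -0.0417 to 0.0394 for HTR4 S1. The 105 probe sets called between cows over the whole array became 208 under median centring, 248 with an intensity trend and robust prior, 13 to 131 with a cow left out and 1820 without cows 2 and 4, while no member tested passed in any of them. Leaving out cow 1 gave 29, cow 3 gave 27 and cow 4 gave 13. The causes were not tested. Of the 12 list medians under other settings 2 moved by more than 1 SD over cows, both without cows 2 and 4: the other receptors to -0.04 and the PTHLH receptor list to -0.05. That SD is taken over all 4 cows, with cows 2 and 4 among them, so larger shifts could count as unmoved. Without cows 2 and 4 the cofactor enzymes went from -0.11 to -0.01 and the carriers from -0.06 to 0.01, both within that SD. The limits are 4 cows, signal near background by the main line for all members but PTHLH and 1 MAOB probe set, and 1 biopsy per state.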

Other observations

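The dimmest of the 3 probe sets of the plasma membrane calcium pump ATP2B1 separated the animals and was chosen after its values were seen. Its levels in cows 1 to 4 were 7.30, 8.42, 7.73 and 5.87 in full gland, against 7.45, 8.34, 7.71 and 5.75 in empty gland. Both samples of cow 4 were the lowest and both of cow 2 the highest, with an adjusted p of 0.00394 for differences between cows in the F-test of limma. The other 2 ATP2B1 probe sets did not pass that test (adjusted p of 0.579 and 0.461), and full and empty gland of each cow differed by at most 0.14 log2 in size for the first one.

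The probe sets used to set the background included a bright one of GH1, the growth hormone gene, at a mean level of 8.90. The other GH1 probe sets lay between 5.47 and 6.37.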
